A study of Mus musculus with 12 samples.

Results

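The late step of eosinophil adaptation to the small intestine (SI) was described by setting 4 libraries of CD22+ eosinophils against 4 libraries of α4β7− CD22− eosinophils, which are 8 of the 12 RNA sequencing libraries of the series. Genes were kept when their average normalized count over these 8 libraries was above 10, which left 15214 of the 36047 genes in the table. Eosinophils were isolated from proximal SI lamina propria of wild-type C57BL/6J mice, labelled as female, and were sorted as live CD45+ CD11b+ SiglecF+ MHCII− Ly6G− cells. The gates for α4β7 and CD22 then separated 3 subsets, which the study took to correspond approximately to earlier (α4β7+), intermediate (α4β7− CD22−), and later (CD22+) stages of residence. Each library pooled 2 mice, the labels name no treatment, and the subsets are gates on surface protein, so a library averages over whatever cells fell in its gate. Because RNA was taken from bulk cells, a lower share of cells that express a gene and less of its RNA per cell cannot be told apart.

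Eosinophils are short-lived granulocytes that leave the bone marrow after their last division and enter the gut from the blood. The integrin α4β7, made of the chains encoded by Itga4 and Itgb7, binds an adhesion molecule of gut vessels and serves as a homing receptor. CD22 is a lectin that binds sialic acid and carries inhibitory motifs in its tail, and it is best known as a brake on B cell receptor signalling. NF-κB and AP-1 are transcription factor families that switch on chemokine, cytokine, and survival genes within minutes of a stimulus, and several of their targets, such as the inhibitor IκBα, feed back on them.

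The normalized counts summed to between 14286474 and 15740374 in the 8 libraries, and 19760 to 20983 genes were above 0 in a library. Of the genes of the gate, Siglecf had 7236 to 8594 normalized counts in α4β7− CD22− and 6884 to 7789 in CD22+ libraries. Ly6g, a neutrophil marker, had at most 3.11. RNA of MHC class II, whose protein the gate excluded, was present, with H2-Ab1 at 786 to 1425 and 761 to 2091. Of 10 eosinophil markers, all 10 had lower estimates in CD22+ eosinophils (median log2 fold change −0.42) and 1, Alox15, was called. Libraries with high levels of genes of the exocrine pancreas stood apart. The summed level of 20 pancreatic acinar genes, most of them for digestive enzymes and a list chosen after the values were seen, was 3408 normalized counts in α4β7− CD22− replicate 2, 11729 in CD22+ replicate 2, and 27366 in CD22+ replicate 3, and between 96 and 692 in the other 5 of the 8 libraries. In the α4β7+ subset the same sum reached 79047 in replicate 2 and 9039 in replicate 4. None of the 20 genes was called, although their median log2 fold change was 3.07 (lowest adjusted p = 0.508 by limma). Markers of T cells and innate lymphoid cells summed to 1352 to 2026 in α4β7− CD22− and 1984 to 2695 in CD22+ libraries, with higher estimates for 13 of 15 genes and none called. Paneth cell markers summed to 356 to 714 and 602 to 3299, the highest in CD22+ replicate 3. That list includes Clps, which is also 1 of the 20 pancreatic genes and had 446 in that library. Plasma cell markers summed to 18776 to 56989 in α4β7− CD22− and 26798 to 60079 in CD22+ libraries. Of 9 such genes tested, 8 had higher estimates and 1, Prdm1, was called. The part of these cells in the results below was not tested beyond leaving out libraries.

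CD22+ eosinophils differed from α4β7− CD22− eosinophils in 89 of the 15214 genes (0.585%), of which 32 were higher in CD22+ (0.210%) and 57 lower (0.375%). A gene was called when limma gave an adjusted p of at most 0.05 and the fold change was at least 1.5. In the earlier step, from α4β7+ to α4β7− CD22−, the same rule called 1213 genes (7.97%), of which 572 were higher (3.76%) and 641 lower (4.21%). Of the 89 genes, 16 were at least 2-fold higher and 24 at least 2-fold lower. The 4 CD22+ libraries lay on one side of the 4 α4β7− CD22− libraries for 87 of them, against 979 of all genes tested (6.43%), which split into 413 higher (2.71%) and 566 lower (3.72%). The exceptions were Jun and Defa3. The genes were called on these same values, so this separation is no separate support for the calls. The test alone, without the limit on the fold change, passed 159 genes (1.05%), 39 higher and 120 lower. The median log2 fold change over all genes tested was −0.001, and 50.2% of the estimates were below 0. The median half-width of the 95% confidence interval, not adjusted for the number of genes tested, was 0.41 on the log2 scale. A call needed more than that, namely the adjusted p and the 1.5-fold limit. In simulated data, 62% of genes changed by 1 on the log2 scale were called, so differences of that size and smaller could be missed.

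**Figure D1:**
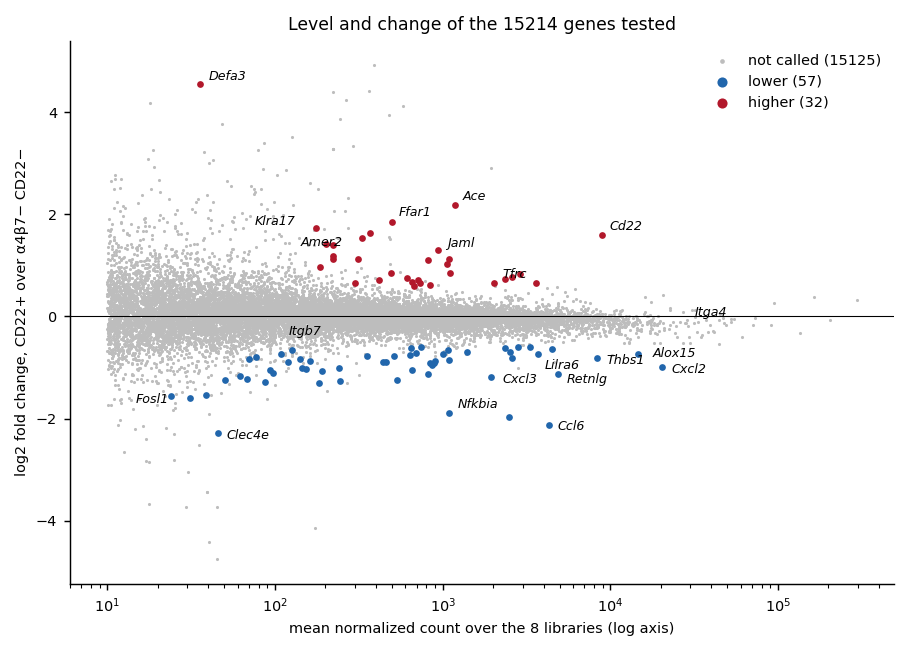
Log2 ratio of CD22+ to α4β7− CD22− eosinophils (vertical axis) against the mean normalized count over the 8 libraries (horizontal log axis) for the 15214 genes tested. Each point is a gene, with the 32 genes called higher in red and the 57 called lower in blue; Ccl6 and Nfkbia lie near −2 at mean counts above 1000, and the grey points were not called.

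Many of these calls were lost in at least 1 of the fits that left out 1 library. Leaving out each of the 12 libraries in turn gave between 62 and 92 calls, and 12 of the higher and 36 of the lower genes were called in all 12 of these fits. The number of higher genes fell to 15 without CD22+ replicate 4, 17 without CD22+ replicate 1 or α4β7− CD22− replicate 2, 18 without CD22+ replicate 2, and 19 without α4β7− CD22− replicate 3. Without the 5 libraries that held pancreatic transcripts, an alternative added after the values were seen, 25 genes were called, 24 of them among the 89. These included Ace, Ffar1, Cd22, Jaml, Hnrnpll, 2900026A02Rik, and Defa3 among the higher genes, and Clec4e, Ccl6, Nfkbia, Aqp9, Cxcl3, Retnlg, Pira2, Glipr2, Cxcl2, Cd69, Psd3, Rgs18, Cd37, Lilra6, Alox15, and Gpr65 among the lower. All 89 had the same direction in those 7 libraries and 84 were still at least 1.5-fold different. Without a trend of the variance on the mean, limma called 52 genes, 13 of them higher. The genes called higher had longer transcripts than the genes called lower, with medians of 4699 and 2473 bases for the longest annotated transcript against 3335 for all genes tested, and their median GC content was 47.1% against 50.5%. Across 15207 genes tested with a length, which are not independent replicates, the Pearson r of the log2 fold change with log2 transcript length was 0.014 and with GC content 0.018.

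Of the genes for the proteins that defined the gates, Cd22 differed between the subsets, and Itgb7 and Itga4 were not called. Cd22 (ENSMUSG00000030577 in the table, chromosome 7, 30865402 to 30880342 of GRCm38) had 4088, 4247, 3693, and 5819 normalized counts in replicates 1 to 4 of the α4β7− CD22− subset and 14766, 12440, 11553, and 14576 in the CD22+ subset. Every CD22+ library was above every α4β7− CD22− library, a difference that the sort fixed (log2 fold change 1.59). The α4β7− CD22− libraries also held Cd22 RNA, and the level in α4β7+ eosinophils was 987 to 1364. Cd22 also marks B cells, and of the B cell markers Cd79a had 28.3 to 65.0 normalized counts in α4β7− CD22− and 37.0 to 85.9 in CD22+ libraries, and Ighm 1632 to 2260.3 and 1891 to 2305. Their part in the Cd22 level was not tested. Itgb7, the β7 chain, had 126, 182, 269, and 304 normalized counts in α4β7− CD22− and 122, 98.7, 118, and 285 in CD22+ libraries, against 1838 to 3058 in α4β7+ libraries. The ranges of both later subsets overlapped, and Itgb7 was not called (log2 fold change −0.55, adjusted p = 0.645). Itga4, the α4 chain, ranged from 28292 to 30500 and from 25253 to 27890 in the same order and was not called either (log2 fold change −0.13, 95% confidence interval −0.28 to 0.01; 0.08 after quantile normalization).

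Ace, which encodes angiotensin-converting enzyme, a peptidase on the cell surface, had the largest increase among the genes called with an average of at least 50. It lies on chromosome 11, 105967945 to 105989964. Its normalized counts were 451, 374, 392, and 510.3 in the α4β7− CD22− and 2149, 2158, 1556, and 1954 in the CD22+ replicates 1 to 4. The lowest CD22+ library, replicate 3, was still far above the highest α4β7− CD22− library. Ace was 4.51-fold higher (log2 fold change 2.17, SE 0.18, adjusted p = 2.38e-05, where SE is the standard error), and in the earlier step its log2 fold change was 1.20 (adjusted p = 0.000357). Of 52 genes for peptidases, matrix proteins, and coagulation that were tested, Ace was the only one called higher and 2 were called lower, Thbs1 among them, with a median log2 fold change of 0.03 over the list.

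Among 62 G protein-coupled receptors tested, Ffar1 and Ptger3 were called higher and Gpr65 lower, against a list median of 0.03. Ffar1, a receptor for medium- and long-chain fatty acids (chromosome 7, 30857390 to 30861564), had 249, 187, 185, and 241 normalized counts in α4β7− CD22− and 860.0, 788, 602, and 871 in CD22+ eosinophils. The subsets did not overlap, and CD22+ replicate 3 was the lowest of its group (log2 fold change 1.85, SE 0.17, adjusted p = 5.17e-05). Ptger3, the EP3 receptor for prostaglandin E2, ranged from 395 to 653 and from 907 to 1268 normalized counts (log2 fold change 1.11, adjusted p = 0.0471). Most of its difference from the α4β7+ subset, at 36.9 to 93.4, lay in the earlier step, with a log2 fold change of 3.23. Gpr65, a receptor that senses protons, was lower in CD22+ libraries (log2 fold change −0.72, adjusted p = 0.00595). Ccr3, the eotaxin receptor, and Gpr183, a receptor for oxysterols, passed the test below the 1.5-fold limit, at −0.49 on the log2 scale for Ccr3 (adjusted p = 0.00601) and −0.55 for Gpr183 (adjusted p = 0.0099). Gpr183, singled out after its values were seen, had gone the other way in the earlier step, where it was called higher (log2 fold change 0.70, adjusted p = 0.000142). The call of Ptger3 was lost in 9 of 12 fits without 1 library (adjusted p up to 0.146, without α4β7− CD22− replicate 3).

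Of 35 genes of integrins and adhesion tested, 2 were called higher and 1 lower. Jaml, a junctional adhesion molecule of leukocytes (chromosome 9, 45079183 to 45108534), had 524, 487, 535, and 641 normalized counts in α4β7− CD22− and 1379, 1354, 1161, and 1469.6 in CD22+ libraries. Its subsets lay wide apart (log2 fold change 1.29, SE 0.12, adjusted p = 4.71e-05). Esam, a related adhesion molecule first known from endothelium, had 115, 105, 116, and 145 against 394, 294, 214, and 398 normalized counts. The CD22+ libraries spread over a wider range than the others but stayed above them (log2 fold change 1.39, SE 0.23, adjusted p = 0.00655). Of the vessel markers, Cdh5, the cadherin of endothelium, had 19.1, 21.2, 27.1, and 74.6 against 100.3, 62.4, 17.1, and 109 normalized counts. Kdr, a VEGF receptor, had 58.7, 57.5, 98.1, and 123 against 157, 145, 83.4, and 194, and Lyve1, a lymphatic marker, 17.4, 17.4, 32.4, and 29.8 against 34.6, 67.4, 10.6, and 72.6. CD22+ replicate 3 was the lowest of its group for Esam and these 3 genes, and also for Cd22, Ace, Ffar1, and Jaml. The ranges of Cdh5, Kdr, and Lyve1 overlapped. None of 16 markers of stroma, vessels, and erythroid cells was called, although 12 had higher estimates, and the part of these markers in the Esam result was not tested. Pecam1, which eosinophils also express, made up most of the summed level of that list, at 13725 to 14597 in α4β7− CD22− and 12249 to 13839 in CD22+ libraries. Itgb3, the β3 integrin chain, was lower in each CD22+ library, at 714 to 823 against 1126 to 1350.5 (log2 fold change −0.74, adjusted p = 0.00118). The median log2 fold change of the list was −0.11. Klra17, a lectin-like receptor of the Ly49 family, had 119, 58.2, 39.5, and 127 normalized counts against 322, 222, 186, and 326, so α4β7− CD22− replicates 2 and 3 held the lowest values (log2 fold change 1.72, SE 0.36, adjusted p = 0.0367). B3galt5, a galactosyltransferase that extends glycan chains, ranged from 124 to 260.0 and from 468 to 662 (log2 fold change 1.62, adjusted p = 0.0251), and Man2a2, a Golgi mannosidase that trims N-glycans, from 271 to 361 and from 477 to 568 (log2 fold change 0.71, adjusted p = 0.0247). Lfng, a glycosyltransferase that modifies Notch receptors, and Chst13, a sulfotransferase, both singled out after their values were seen, were lower, at 292 to 469 against 604 to 686 (log2 fold change −0.78, adjusted p = 0.00488) and 51.9 to 60.8 against 82.5 to 116 (log2 fold change −0.80, adjusted p = 0.022). Of these genes, Jaml, Esam, Itgb3, and Lfng were called in all 12 fits that left out 1 library, while the call was lost for Klra17 in 6 (adjusted p up to 0.13, without α4β7− CD22− replicate 2), B3galt5 in 6 (adjusted p up to 0.0937, without α4β7− CD22− replicate 1), Man2a2 in 5 (adjusted p up to 0.087, without α4β7− CD22− replicate 1), and Chst13 in 6 (adjusted p up to 0.0787, without α4β7− CD22− replicate 1) of them.

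**Figure D2:**
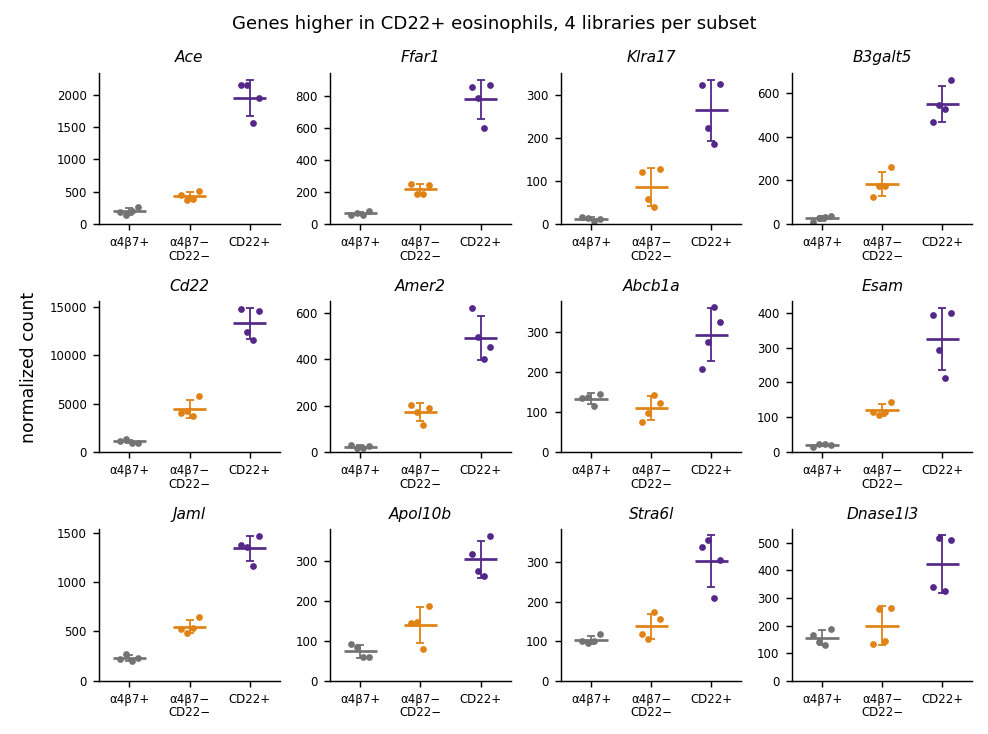
Normalized counts (vertical axes, starting at 0) of the 12 genes with the largest increases among those called without overlap and with an average of at least 50, in the 4 libraries of each of the 3 subsets. Points are libraries in the order of their replicate numbers, bars are means, and whiskers are SDs; in every panel the 4 CD22+ libraries lie above the 4 α4β7− CD22− libraries, and for Abcb1a, Stra6l, and Dnase1l3 the α4β7− CD22− libraries lie near the α4β7+ libraries.

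The lists for the aryl hydrocarbon receptor, retinoic acid, and iron gave 1 call each. Abcb1a, the efflux pump P-glycoprotein, had 74.9, 97.2, 142, and 124 normalized counts in α4β7− CD22− and 208, 276, 362, and 325 in CD22+ libraries (log2 fold change 1.42, SE 0.21, adjusted p = 0.00405). Its α4β7+ libraries, at 114 to 146, overlapped the α4β7− CD22− libraries. Of its 31-base words, the unit that Kallisto compares, 28.2% also occur in other genes, mostly Abcb1b. Cyp1b1, a cytochrome P450 that the aryl hydrocarbon receptor induces, was the 1 gene called among 12 of that pathway, with 2628, 2820.4, 2339, and 3548 against 4338, 4502, 3774, and 5021 normalized counts (log2 fold change 0.65, adjusted p = 0.0367). The lowest CD22+ library was close above the highest α4β7− CD22− library. Stra6l, a receptor for the retinol carrier RBP4, was the 1 gene called among 25 of the retinoic acid pathway, with 118, 105, 173, and 157 against 339, 358, 209, and 307 normalized counts (log2 fold change 1.13, adjusted p = 0.0124). In that list, Dhrs9, a retinol dehydrogenase, had a log2 fold change of −1.15 (adjusted p = 0.0879) and was not called. Tfrc, the transferrin receptor that brings iron into cells (chromosome 16, 32608920 to 32632794), was the 1 gene called among 25 of iron handling. Its counts were 1638, 1388, 1567, and 1671 against 2364, 2702, 2142, and 2677, with no overlap (log2 fold change 0.66, SE 0.099, adjusted p = 0.00422). The list medians were −0.045, 0.009, and −0.040 on the log2 scale in the order given. Abcb1a and Tfrc were called in all 12 fits that left out 1 library. In such fits Cyp1b1 was not called in 7 (adjusted p up to 0.119, without α4β7− CD22− replicate 1), and Stra6l was not called without α4β7− CD22− replicate 2 or without CD22+ replicate 2 (adjusted p up to 0.0509).

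Hnrnpll, which controls alternative splicing in lymphocytes, had 1701, 1896, 1709, and 1774 normalized counts in α4β7− CD22− and 3174, 3103, 2756, and 2764 in CD22+ libraries (log2 fold change 0.73, SE 0.079, adjusted p = 0.000224). Its values in either subset differed by little among the replicates. Prdm1, the repressor Blimp-1, ranged from 476 to 631 and from 737 to 1046 normalized counts (log2 fold change 0.71, adjusted p = 0.022), and Arid5b, a DNA-binding protein, from 399 to 512 and from 692 to 865 (log2 fold change 0.76, adjusted p = 0.0251). Prdm1 also marks plasma cells, and the summed level of the 9 plasma cell markers other than Prdm1 was 18300 to 56447 in α4β7− CD22− and 26022 to 59144 in CD22+ libraries, ranges that overlapped. Acsl1, which activates fatty acids for metabolism, rose by 0.60 on the log2 scale (adjusted p = 0.0308). These 4 genes were chosen here after their values were seen. Hnrnpll was called in all 12 fits that left out 1 library, whereas the call was lost for Prdm1 in 4 (adjusted p up to 0.0769, without α4β7− CD22− replicate 2), Arid5b in 6 (adjusted p up to 0.0837, without α4β7− CD22− replicate 3), and Acsl1 in 7 (adjusted p up to 0.103, without CD22+ replicate 2) of them.

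Chemokine and cytokine ligands gave 4 calls among 33 genes tested, all lower in CD22+ eosinophils, with a list median of −0.07. Ccl6, a CC chemokine (chromosome 11, 83587882 to 83593087), had 7171, 7034, 8241, and 5455 normalized counts in α4β7− CD22− and 1637, 1671, 1656, and 1409 in CD22+ libraries. The CD22+ libraries lay within a narrow range far below the others, with replicate 4 the lowest, and the fold difference was 4.34 (log2 fold change −2.12, SE 0.12, adjusted p = 2.23e-07). Cxcl2 and Cxcl3, ligands of the neutrophil receptor CXCR2, are neighbours on chromosome 5. Cxcl2 had 31400, 26486, 28109, and 22881 normalized counts against 15927, 12505, 12880, and 13295 (log2 fold change −0.99, SE 0.11, adjusted p = 0.000348). Cxcl3 had 2998, 2337, 2833, and 2669 against 1615, 1055, 989, and 1162 (log2 fold change −1.19, SE 0.17, adjusted p = 0.00278), so both fell without overlap while Cxcl2 stayed the more abundant. Osm, oncostatin M, a cytokine of the IL-6 family, ranged from 70.6 to 104 and from 45.2 to 52.8 normalized counts (log2 fold change −0.84, adjusted p = 0.0295). Il1a, an alarmin, passed the test below the 1.5-fold limit (log2 fold change −0.51, adjusted p = 0.0359). Il4, at −0.73 on the log2 scale (adjusted p = 0.0504), and Vegfa, at −0.57 (adjusted p = 0.0784), were not called. Il6, which was below the limit for testing, was listed at 3.36 to 12.5 in α4β7− CD22− and 0 to 1.27 in CD22+ libraries, where a floor of 3 reads lies near 2.56 to 3.11 normalized counts. Ccl6, Cxcl2, and Cxcl3 were called in all 12 fits that left out 1 library, and the call was lost for Osm in 7 (adjusted p up to 0.108, without α4β7− CD22− replicate 2) of them.

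NF-κB itself was represented by 48 subunits, inhibitors, and targets, of which 1 was called, although 35 had lower estimates (median log2 fold change −0.09). That gene was Nfkbia, which encodes the inhibitor IκBα (chromosome 12, 55489410 to 55492647). Nfkbia had 1877, 1626, 1704, and 1662 normalized counts in α4β7− CD22− and 447, 409, 418, and 591 in CD22+ libraries. Even the highest CD22+ library, replicate 4, was far below the lowest α4β7− CD22− library (log2 fold change −1.89, SE 0.10, adjusted p = 2.23e-07). The α4β7+ libraries held 14785 to 17428, so the level fell by 3.23 on the log2 scale in the earlier step. Nfkb2, a subunit precursor, Tnfaip3, the feedback inhibitor A20, and Birc3, an inhibitor of cell death, passed the test below the 1.5-fold limit, with log2 fold changes of −0.58 (adjusted p = 0.00613), −0.51 (adjusted p = 0.0102), and −0.39 (adjusted p = 0.0369). Ptgs2, the inducible cyclooxygenase, had 1406 to 2007 against 806 to 1195 normalized counts and was not called (log2 fold change −0.74, adjusted p = 0.0638).

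Immediate early and stress response genes gave 3 calls among 50 tested, all lower, and 36 of the 50 estimates were below 0 (median −0.23). Fosl1, the AP-1 subunit Fra-1, had 41.1, 42.7, 58.0, and 46.8 normalized counts in α4β7− CD22− and 12.0, 18.3, 16.5, and 13.3 in CD22+ libraries (log2 fold change −1.59, SE 0.25, adjusted p = 0.00603). The separation was complete, but 54.5% of the 31-base words of Fosl1 lie in Ccdc85b, which overlaps it, so reads may have been shared. Jun, another AP-1 subunit, had 3029, 3215, 3146, and 2073 against 1988, 2103, 1712, and 1606 normalized counts. The libraries overlapped, since α4β7− CD22− replicate 4 lay below CD22+ replicate 2 (log2 fold change −0.62, adjusted p = 0.0367). Dusp5, a phosphatase that inactivates ERK, ranged from 2917 to 3337 and from 1405 to 2239.7, with CD22+ replicate 3 the lowest (log2 fold change −0.69, adjusted p = 0.0173). Btg2, Cebpb, Zfp36, Junb, Dusp1, and Ier5 passed the test below the 1.5-fold limit, with log2 fold changes between −0.53 and −0.39. Fos and Fosb had changes of −0.41 (adjusted p = 0.0557) and −0.55 (adjusted p = 0.0711). Fosl1 was called in all 12 fits that left out 1 library. Jun was not called in 7 (adjusted p up to 0.133, without α4β7− CD22− replicate 2), and Dusp5 was not called without α4β7− CD22− replicate 1 or 2 (adjusted p up to 0.0658) or without CD22+ replicate 3, where its log2 fold change was −0.54.

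To show the sequence upstream of these genes, the promoters of the genes called were searched for the core κB letters GGANTTTCC on both strands, in RefSeq windows of GRCm38.p6 from 250 bases before to 50 after each start site. The motif was chosen after the values were seen and with Nfkbia, Cxcl2, and Cxcl3 known as NF-κB targets, so its presence there adds nothing to their change, and the shares below are a description with no test. A window was found for 65 of the 89 genes. The letters occurred in 5 of 41 genes called lower (12.2%), namely Nfkbia, Cxcl2, Cxcl3, Acod1, and Tmcc3, and in 0 of 24 called higher, against 181 of 11164 genes tested that had a window (1.6%) and 412 of 32851 windows in all (1.3%). For comparison, the AP-1 letters TGANTCA occurred in 3 of 41 (7.3%) and 1 of 24 (4.2%) against 7.0% of the genes tested, and the AHR-ARNT letters TNGCGTG in 6 of 41 (14.6%) and 2 of 24 (8.3%) against 8.7%. No match overlapped a match of another motif in these genes. The calls of Acod1 and Tmcc3 were each lost in 8 of the 12 fits that left out 1 library, that of Tmcc3 with an adjusted p up to 0.128 without α4β7− CD22− replicate 1. A match is a string of letters and not a bound site. The 250 bases before the start site are shown for the 4 lower genes of known inflammatory function that held the κB letters, 5′ to 3′ on the gene's strand, with the κB letters in capitals. Counted back from the start site, the first letter of the match lies at −178 and −29 in Nfkbia, −96 in Cxcl2, −72 in Cxcl3, and −85 in Acod1, and the 9 letters of Cxcl2 and Cxcl3 are identical.
Nfkbia (chr12:55492648-55492897, − strand): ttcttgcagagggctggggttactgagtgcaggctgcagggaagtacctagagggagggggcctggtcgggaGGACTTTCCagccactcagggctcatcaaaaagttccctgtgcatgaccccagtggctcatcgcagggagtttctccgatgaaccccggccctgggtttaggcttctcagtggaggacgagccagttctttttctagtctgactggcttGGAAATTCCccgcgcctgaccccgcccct
Cxcl2 (chr5:90903649-90903898, + strand): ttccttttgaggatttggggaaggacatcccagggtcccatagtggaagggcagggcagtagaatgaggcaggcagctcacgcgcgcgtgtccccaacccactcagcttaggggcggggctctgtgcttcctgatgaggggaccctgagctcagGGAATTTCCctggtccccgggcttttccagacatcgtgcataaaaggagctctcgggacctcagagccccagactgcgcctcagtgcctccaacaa
Cxcl3 (chr5:90785851-90786100, + strand): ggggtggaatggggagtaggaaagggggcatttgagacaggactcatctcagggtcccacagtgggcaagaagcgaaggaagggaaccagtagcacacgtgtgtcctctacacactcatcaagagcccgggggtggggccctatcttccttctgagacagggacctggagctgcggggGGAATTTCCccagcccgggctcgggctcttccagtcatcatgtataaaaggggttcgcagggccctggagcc
Acod1 (chr14:103046762-103047011, + strand): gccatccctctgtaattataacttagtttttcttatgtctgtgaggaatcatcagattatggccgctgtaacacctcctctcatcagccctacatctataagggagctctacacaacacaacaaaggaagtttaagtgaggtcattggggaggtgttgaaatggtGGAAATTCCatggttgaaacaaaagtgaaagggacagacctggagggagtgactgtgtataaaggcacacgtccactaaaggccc

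Acod1, the enzyme that makes itaconate in activated myeloid cells, had 243, 251, 271, and 250.4 normalized counts in α4β7− CD22− and 163, 146, 48.3, and 96.3 in CD22+ libraries. The former differed by little, whereas CD22+ replicates 3 and 4 were well below replicates 1 and 2 (log2 fold change −1.30, SE 0.29, adjusted p = 0.0446). A block for the replicate number raised the adjusted p to 0.065, and 8 of the 12 fits that left out 1 library did not call it (adjusted p up to 0.121, without α4β7− CD22− replicate 2).

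Among innate receptors, 4 were lower in CD22+ eosinophils. Clec4e, the C-type lectin Mincle, which senses glycolipids of microbes and dying cells (chromosome 6, 123281789 to 123289870), had 99.0, 49.4, 63.5, and 92.4 normalized counts in α4β7− CD22− and 8.96, 10.4, 23.5, and 18.0 in CD22+ libraries. It was 4.89-fold lower without overlap (log2 fold change −2.29, SE 0.30, adjusted p = 0.00141), and it was the 1 gene called among 41 pattern recognition receptors, whose median was 0.08. Lilra6 and Pira2 belong to a family of paired immunoglobulin-like receptors with activating members. Lilra6 had 4671, 4679, 4552, and 4595 against 2754, 2776, 2653, and 2903 normalized counts, the smallest standard error of the 89 genes (log2 fold change −0.74, SE 0.060, adjusted p = 2.38e-05). Pira2 had 1234, 1152, 1096, and 984 against 537, 553, 564, and 399, with CD22+ replicate 4 the lowest (log2 fold change −1.13, SE 0.11, adjusted p = 8.56e-05). Pira2 shares 96.7% of its 31-base words with other genes of the family and Lilra6 49.6%, so which member changed is uncertain. Siglecg, an inhibitory receptor for sialic acid like CD22, went the opposite way from Cd22, with 183, 243, 240.3, and 177 against 126, 114, 106, and 106 normalized counts (log2 fold change −0.88, adjusted p = 0.0209). Of 37 inhibitory and sialic acid receptors tested, Cd22 was called higher and Lilra6, Pira2, and Siglecg lower, with a median of −0.07. Clec4e, Lilra6, and Pira2 were called in all 12 fits that left out 1 library, and the call was lost for Siglecg in 5 (adjusted p up to 0.0769, without α4β7− CD22− replicate 2) of them.

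Thbs1, thrombospondin-1, a matrix protein that activates TGF-β, had 10968, 10669, 10237, and 10722 normalized counts in α4β7− CD22− and 7298, 6535, 5229.8, and 5338 in CD22+ libraries (log2 fold change −0.82, SE 0.098, adjusted p = 0.000542). It remained among the more abundant transcripts in both subsets. Aqp9, a channel for water and glycerol, ranged from 269 to 412 and from 125 to 159 (log2 fold change −1.26, adjusted p = 0.000152), Inpp5j, a phosphoinositide phosphatase, from 96.6 to 159 and from 33.4 to 63.4 (log2 fold change −1.28, adjusted p = 0.00613), and Cd69, an activation marker that keeps lymphocytes in tissue, from 1067 to 1236 and from 504 to 638 (log2 fold change −0.96, adjusted p = 0.000321). Retnlg, a resistin-like protein also made by neutrophils, had 5847 to 7876 against 2708 to 3505 normalized counts (log2 fold change −1.13, adjusted p = 0.000348). Of the other neutrophil markers, Mmp8, a collagenase, had 11.9 to 31.9 normalized counts in α4β7− CD22− and 1.86 to 11.04 in CD22+ libraries (log2 fold change −2.20, adjusted p = 0.0603), and S100a9, below the limit for testing, 4.35 to 12.4 and 0 to 6.37. Cxcr2 had 1213 to 1459 and 1449.8 to 2050.2 (log2 fold change 0.40, adjusted p = 0.109), and Ngp 92.9 to 136 and 126 to 154 (log2 fold change 0.44, adjusted p = 0.46), and none of the markers but Retnlg was called. The 11 neutrophil markers other than Retnlg summed to 1396 to 1597 and 1642 to 2220, of which Cxcr2 was the most, and their part in the Retnlg result was not tested. Cd37, a tetraspanin on the list of B cell markers, was also lower (log2 fold change −0.85, adjusted p = 0.000321), while 7 of the 9 genes tested of that list had higher estimates. Thbs1, Aqp9, Inpp5j, Cd69, Retnlg, and Cd37 were called in all 12 fits that left out 1 library.

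**Figure D3:**
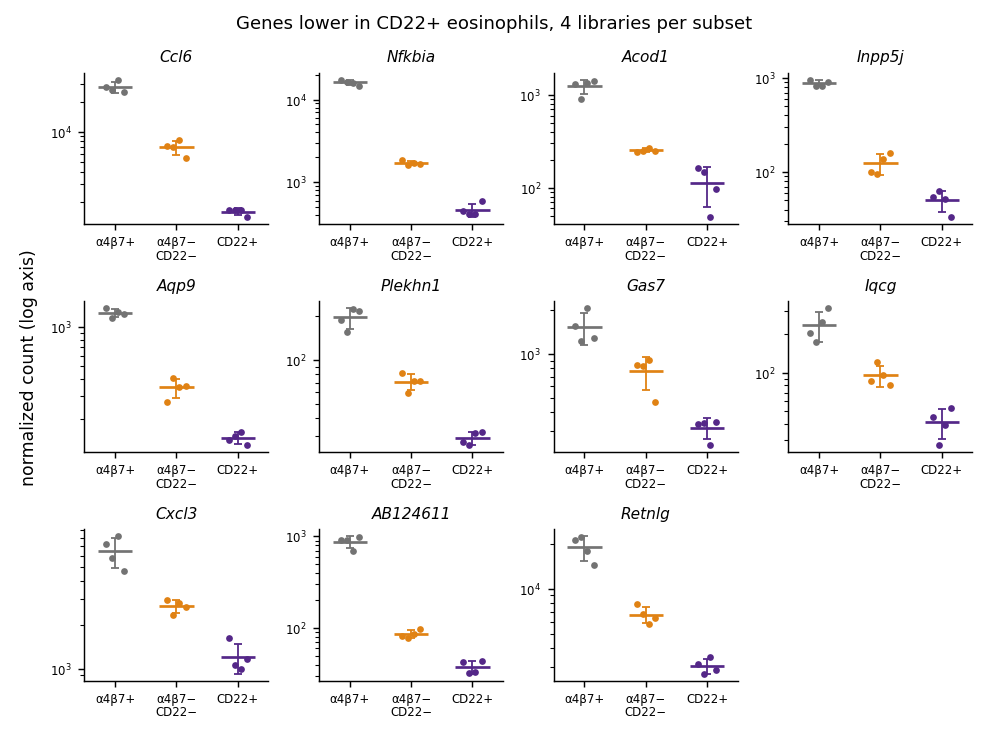
Normalized counts (vertical log axes) of 11 of the 12 genes with the largest decreases among those called without overlap and with an average of at least 50, in the 4 libraries of each subset. Points are libraries in the order of their replicate numbers, bars are means, and whiskers are SDs; the 4 CD22+ libraries lie below the 4 α4β7− CD22− libraries in every panel, and the α4β7+ libraries are above both, with Nfkbia at 14785 to 17428 in that subset.

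Of 21 genes of eosinophil identity and granules, 1 was called. Alox15, the lipoxygenase that makes lipid mediators in eosinophils, had 20063, 17975, 17543, and 17749 normalized counts in α4β7− CD22− and 11428, 11854, 9917, and 11109 in CD22+ libraries (log2 fold change −0.73, SE 0.079, adjusted p = 0.00024). Its subsets did not overlap, and the list median was −0.25, with 17 of 21 estimates below 0. Il5ra, the receptor chain for the eosinophil growth factor IL-5, had 2200.5 to 2357 against 1648 to 1959 normalized counts and passed the test below the 1.5-fold limit (log2 fold change −0.34, adjusted p = 0.0307). The granule protein genes Epx and Prg2 were low in mature cells, at 89.5 to 173 and 170.0 to 212 in α4β7− CD22− and 58.7 to 77.2 and 69.2 to 156 in CD22+ libraries. They did not pass the test (log2 fold changes −0.87, adjusted p = 0.0722, and −0.81, adjusted p = 0.0914). Siglecf had a 95% confidence interval of −0.24 to 0.06 around its log2 fold change.

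Eno1, enolase, was the 1 gene called among 22 of glycolysis, with 3602, 3189.5, 3439.7, and 3276 normalized counts against 2149, 2183, 2135, and 2474 (log2 fold change −0.60, SE 0.075, adjusted p = 0.000869). Its change was just past the 1.5-fold limit and fell below it without α4β7− CD22− replicate 1 or without CD22+ replicate 1 or 3 (smallest log2 fold change −0.56), and Eno1 shares 28.5% of its 31-base words with other genes, mainly Eno1b. The glycolysis median was −0.15, against −0.53 in the earlier step. In cholesterol synthesis and uptake, 25 of 31 estimates were above 0 (median 0.24, against 0.84 in the earlier step), and none was called higher. The 1 gene called was Mylip, which tags the LDL receptor for degradation and was lower (log2 fold change −0.62, adjusted p = 0.0228). The call of Mylip was lost in 5 of 12 such fits without 1 library (adjusted p up to 0.0752, without α4β7− CD22− replicate 1). Of 84 ribosomal protein genes none was called, 79 had lower estimates, and the median was −0.33. Rpl31 passed the test below the 1.5-fold limit (log2 fold change −0.58, adjusted p = 0.0107). No gene was called among 51 cytokine receptors and JAK-STAT genes (median −0.03), 35 of the BCL2 family and survival (−0.10), 52 of the interferon response and MHC class I (−0.02), or 17 of the circadian clock (0).

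**Figure D4:**
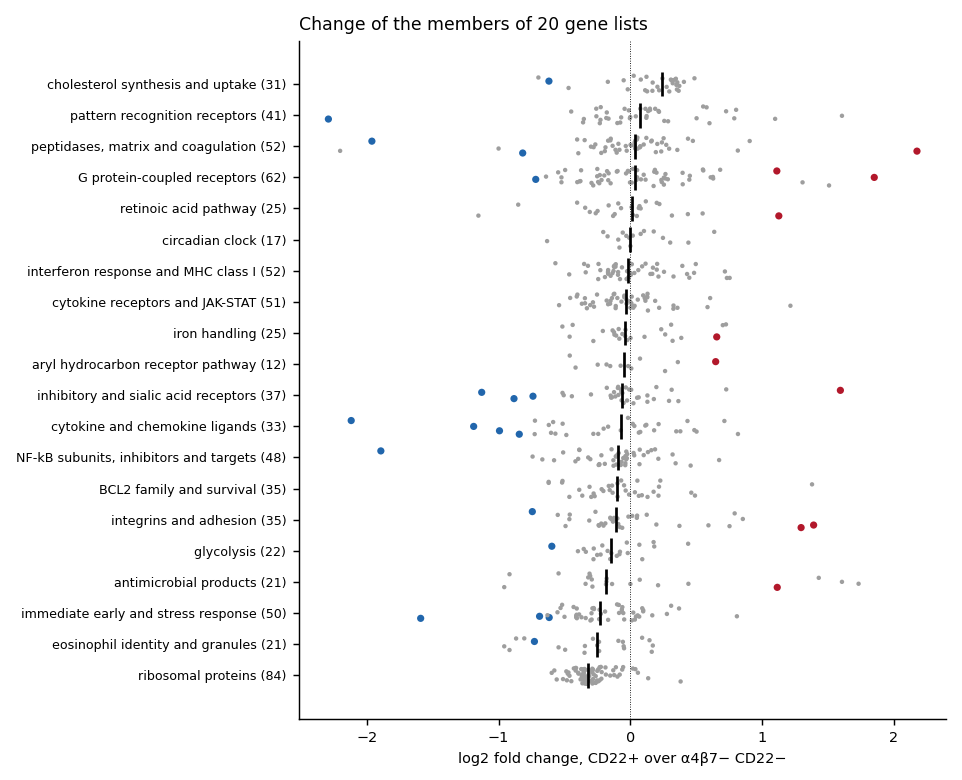
Log2 ratio of CD22+ to α4β7− CD22− eosinophils (horizontal axis) for each member tested of 20 gene lists (rows, with the number tested in parentheses), sorted by median. Black bars are list medians, red and blue points are genes called higher and lower, and grey points were not called; list medians run from −0.33 for ribosomal proteins to 0.24 for cholesterol synthesis and uptake, and no list held more than 4 calls.

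Of the 32 genes called higher at the late step, 22 had been called higher in the earlier step, 8 had not been called, and 2 had been called lower. Of the 57 called lower, 47 had been called lower and 10 had not been called. Both comparisons use the α4β7− CD22− libraries, with opposite signs, so these counts are given as values only. Among the genes not called in the earlier step, Lilra6 had log2 fold changes of −0.39 in the earlier and −0.74 in the late step, Psd3, an exchange factor for ARF6, −0.43 and −0.92 (late adjusted p = 0.00165), and Ccr1l1, a chemokine receptor-like gene, −0.42 and −1.01 (late adjusted p = 0.00278). Dip2c was lower at 532 to 653 against 822 to 945 normalized counts (log2 fold change −0.61, adjusted p = 0.0112). It was not called without α4β7− CD22− replicate 3 or CD22+ replicate 1 or 4, where the log2 fold change came to between −0.58 and −0.56. Whether the early and late changes of a gene differ was not tested.

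Lyz2, lysozyme M, a granule enzyme of myeloid cells, had 911, 604, 432, and 902 normalized counts in α4β7− CD22− and 1583, 1360.5, 1274, and 1723 in CD22+ libraries, all of the latter above the former (log2 fold change 1.11, SE 0.21, adjusted p = 0.022). It shares 32.8% of its 31-base words with Lyz1, the Paneth cell lysozyme, and Lyz1 itself had 20.2, 115, 44.3, and 84.7 against 177, 124, 344, and 64.2 and was not called. The log2 fold change of Lyz1 was 1.43 (adjusted p = 0.298 by limma). Macrophage and dendritic cell markers summed to 5872 to 9736 and 5462 to 12895, ranges that overlapped, with higher estimates for 14 of 18 genes and none called. Of 12 Paneth cell markers tested, 10 had higher estimates. The part of these cells in the Lyz2 result was not tested. Lyz2 was the 1 gene called among 21 antimicrobial products (median −0.18), and it was not called without α4β7− CD22− replicate 2 or without CD22+ replicate 1 or 4 (adjusted p up to 0.0782). Dnase1l3, a secreted nuclease that digests chromatin, had 132, 258, 143, and 262 normalized counts against 339.6, 519, 326, and 509.9 (log2 fold change 1.12, adjusted p = 0.0425), and 8 of the 12 fits that left out 1 library did not call it (adjusted p up to 0.133, without CD22+ replicate 2).

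Pou2f2 and Defa3 were called in opposite directions in the comparisons before and after the α4β7− CD22− stage. Both comparisons use the α4β7− CD22− libraries, so low values there alone give this pattern. Pou2f2, the transcription factor Oct-2 (chromosome 7, 25087344 to 25179726), had normalized counts of 220.2, 250.1, 165, and 232 in the α4β7+, 132, 125, 143, and 106 in the α4β7− CD22−, and 229.6, 266, 239, and 255 in CD22+ libraries. The intermediate subset was thus lower than both others, without overlap on either side, with a log2 fold change of −0.76 in the earlier step (adjusted p = 0.00342) and 0.97 in the late step (SE 0.15, adjusted p = 0.00595). It was called in all 12 fits that left out 1 library. Oct-2 is best known from B cells, and the summed level of 11 B cell markers other than Cd37, Ighm above all, was 1850.5 to 2423.5 in α4β7− CD22− and 2143 to 2749.5 in CD22+ libraries, ranges that overlapped. Their part in the result was not tested. Defa3, a Paneth cell defensin, was listed at 0 in α4β7− CD22− replicates 1, 3, and 4 and at 39.2 in replicate 2, against 38.4, 79.0, 87.4, and 42.2 in CD22+ and 35.2 to 44.4 in α4β7+ libraries. It was called (log2 fold change 4.55, adjusted p = 0.0307), but the libraries overlapped, 92.6% of its 31-base words occur in other genes, above all Defa17, and 7 of the 12 fits that left out 1 library did not call it (adjusted p up to 0.108, without α4β7− CD22− replicate 1). A fold against a subset listed at 0 in 3 of 4 libraries depends on the pseudocount.

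**Figure D5:**
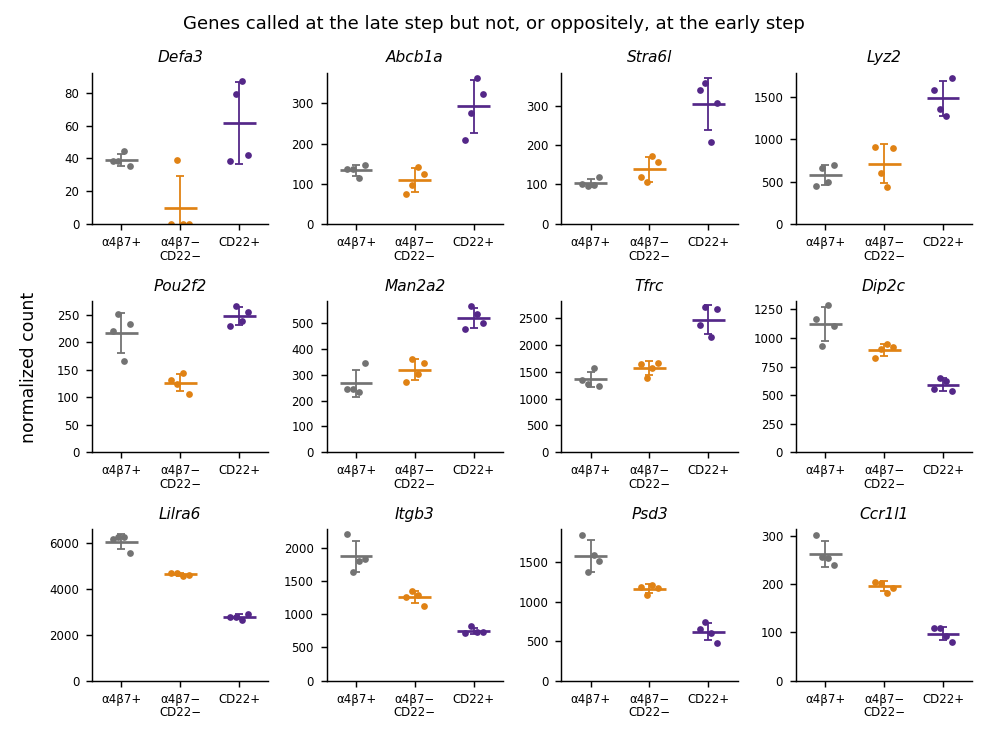
Normalized counts (vertical axes, starting at 0) in the 4 libraries of each subset for 10 genes called between CD22+ and α4β7− CD22− but not in the earlier step, and for Pou2f2 and Defa3, which were called in opposite directions. Points are libraries in the order of their replicate numbers, bars are means, and whiskers are SDs; Pou2f2 is lowest in the α4β7− CD22− subset, and Defa3 is listed at 0 in 3 of its 4 libraries there.

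Amer2, which anchors the APC protein at the membrane, had 118 to 206 against 403 to 622 normalized counts (log2 fold change 1.53, adjusted p = 0.0051), and Apol10b, of the apolipoprotein L family, 79.4 to 186 against 261 to 363 (log2 fold change 1.17, adjusted p = 0.0307). Among the lower genes, Gas7 had 835, 832, 905, and 472 against 334, 338, 239, and 344 normalized counts, with α4β7− CD22− replicate 4 far below its group (log2 fold change −1.25, adjusted p = 0.00795). Plekhn1, Iqcg, and AB124611 had log2 fold changes of −1.25 (adjusted p = 0.00526), −1.23 (adjusted p = 0.0264), and −1.17 (adjusted p = 0.00278). Iqcg shares 47.7% of its 31-base words with other genes, nearly all with Lrch3, which overlaps it. The calls of Amer2, Gas7, Plekhn1, and AB124611 held in all 12 fits that left out 1 library, while the call was lost for Apol10b in 7 (adjusted p up to 0.101, without CD22+ replicate 4) and Iqcg in 5 (adjusted p up to 0.1, without α4β7− CD22− replicate 2) of them.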

How the data were processed

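RNA of sorted eosinophil subsets was sequenced in 12 libraries, 4 per subset, each from 2 pooled mice. Libraries were prepared from total RNA with a stranded kit that removes ribosomal sequence, and read as paired ends. The authors trimmed reads with Trimmomatic 0.39, quantified transcripts with kallisto 0.46.1 on mm10, and deposited gene-level counts normalized by DESeq2 1.38.2, a signal that is not whole reads, so no count test was run. Of the 36047 identifiers, 35968 were in GENCODE M21, which gave positions, and 0 columns of values were left unmatched to a sample.

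Values were tested as log2(normalized count + 1) with limma 3.58.1 (R 4.3.3), with a trend of the variance on the mean level, in a model of all 12 libraries with a mean per subset. Genes had to average above 10 over the 8 libraries compared. P-values were adjusted by the Benjamini-Hochberg method over the 15214 genes tested, and calls required 1.5-fold or more with an adjusted p no higher than 0.05. Fold changes are on the log2(value + 1) scale, which understates changes of low genes. P-values measure the spread between libraries of pooled mice. In simulated data for this comparison, 62% of genes changed by 1 on the log2 scale and 85% of those changed by 2 were called, as were 5 of 15014 unchanged genes.

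Same-numbered CD22+ and α4β7− CD22− libraries deviated together (Pearson r of deviations from the subset means 0.133 to 0.196 in 4 of 4 pairs), so the replicate numbers may pair the libraries. The main fit did not use this pairing, and its p-values and SEs are the ones given unless a block is named. A fit with the number as a block, run as an alternative, gave 98 calls (40 higher) against 89 (32 higher). Other alternatives changed the pseudocount, the filter, the scaling, the variance model, the call rule, and the libraries used. The members and gene lists were chosen with earlier results of these data known. Named genes were the genes of the gates with Ace, the 12 largest changes in each direction among genes called without overlap and with an average of at least 50, up to 6 called members of each list, and up to 5 genes in each direction not called in the earlier step, with those called in opposite directions. Other genes were named after their values were seen, and some genes that the rule covers are not reported here. Sharing of 31-base words was computed over GENCODE transcripts, and promoter windows of 300 bases came from RefSeq (GRCm38.p6). Depth in reads is not given by the normalized values, so levels carry the spread between libraries and no counting interval.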

Additional observations from a re-analysis of the deposited data

Results flagged for a closer look

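In 10 of 178 groups of 4 libraries (2 subsets for each of the 89 genes called), the highest or lowest library lay apart from the other 3 by Dixon's test at the 95% level, where chance would give about 8.9. In the CD22+ subset, replicate 3 stood apart for Capg (86.3 normalized counts), Gas7 (239), and Sash1 (2885). CD22+ replicate 4 stood apart for Ccl6 (1409), Eno1 (2474), Glipr2 (456.5), and Pira2 (398.5). In the α4β7− CD22− subset, replicate 2 stood apart for Defa3 (39.2 normalized counts), and replicate 4 for Gas7 (472) and Jun (2073). Gas7 was called in all 12 fits that left out 1 library, whereas Jun and Defa3 were each lost in 7 of them.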

How the results depend on the processing

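Against 89 calls (32 higher, 57 lower), limma without the variance trend called 52 genes (13 higher), of which 50 were among the 89, and the adjusted p alone passed 159 genes (120 lower). Leaving out the 5 libraries with pancreatic transcripts left 25 calls (7 higher, 18 lower) at the late step and 725 at the earlier step, with fewer libraries in every subset. Leaving out 1 library gave 62 to 92 calls, with 15 to 36 higher. The other planned settings gave 78 to 98 calls. The model of the 8 compared libraries alone gave 78, of which 69 were among the 89, and lost Acod1, Apol10b, Capg, Chst13, Defa3, Dnase1l3, Iqcg, Jun, Klra17, Mylip, Osm, Acsl1, Atp10a, and Tmcc3 among the genes named (adjusted p 0.0512 to 0.112). Without a filter on low values 13 of the 89 were lost, among them Acod1, Cyp1b1, Dnase1l3, Jun, Klra17, Ptger3, and Tmcc3. The fit with the replicate number as a block gave 98 calls, 86 of them among the 89. It ended the calls of Acod1 (adjusted p = 0.065), Grik4 (0.0571), and Atp10a (0.0711), and changed no other call of the 89. Of the genes called, 43 were called in all 12 fits without 1 library and in all 11 other planned settings. Itga4, which was not called, turned from −0.13 to 0.084 on the log2 scale after quantile normalization. List medians close to 0 changed sign with the settings, for example that of inhibitory and sialic acid receptors (0.014 after quantile normalization against −0.067), the aryl hydrocarbon receptor pathway (0.018 against −0.045), the retinoic acid pathway (−0.050 against 0.009), and G protein-coupled receptors (−0.050 without the 5 libraries against 0.033). The causes were not tested.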
